A study of Homo sapiens with 6 samples.

Results

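The 10 genes described here encode the nuclear receptors PPARG and PPARD, proteins whose genes these receptors are known to control, and enzymes that burn fatty acids: ANGPTL4, PDK4, PLIN2, CPT1A, SLC25A20, ACADVL, HADHA and FABP3. They were looked up by symbol, and 10 of 10 were present among the 14168 genes of the deposited table. The members were picked with the values of this same comparison in view, so their own differences are given as a description, and no p-value is given for them. Polyadenylated RNA had been sequenced from BJ cells, an established human foreskin fibroblast line labelled wild type and grown in RPMI with fetal serum. There were 3 libraries of cells given an siRNA against agrin and 3 of cells given a control siRNA. Agrin (AGRN) is a large extracellular matrix proteoglycan best known for organising the nerve-muscle synapse. Neither the sequence nor the dose of either siRNA is stated, and the interval before harvest is not stated either. Separate cultures are not documented for the libraries of a group, so p-values gauge only the spread among these libraries, which may be technical.

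Peroxisome proliferator-activated receptors (PPARs) are transcription factors that bind fatty acids and pair with a retinoid X receptor. The pair is known to bind direct repeats of the half-site AGGTCA spaced by 1 base (DR1) in genes of lipid handling. Long-chain fatty acids enter mitochondria as carnitine esters, made by CPT1A and carried across the inner membrane by SLC25A20, and are then shortened by the acyl-CoA dehydrogenase ACADVL and by the trifunctional protein, of which HADHA is the alpha subunit. ANGPTL4, PDK4 and PLIN2 are textbook targets of these receptors in many cell types.

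The values are scaled CPM, the authors' depth-normalised read counts with a further scaling per library, and they rest on 42736368 to 48246613 reads on listed genes per library. AGRN, the gene the siRNA was aimed at, stood at 290, 297 and 265 scaled CPM in agrin siRNA replicates 1, 2 and 3, against 744, 804 and 790 in control siRNA replicates 1, 2 and 3, so 36.4% ± 2.13 of the control level was left (SD, n = 3). Fibroblast markers were abundant in both groups, and the 10 listed markers summed to between 49197 and 51585 scaled CPM in agrin siRNA libraries and between 51570 and 54268 in control siRNA libraries. Of these markers 0 rose and 4 fell: FAP (log2 fold change -0.45, limma adjusted p = 0.000384), PDGFRB (-0.36, limma adjusted p = 0.00326), LUM (-0.31, limma adjusted p = 0.0107) and COL1A1 (-0.27, limma adjusted p = 0.0429). LUM lost its call without control siRNA replicate 1 (0.0585). COL1A1 lost it without agrin siRNA replicate 3 (0.171) or control siRNA replicate 1 (0.147), 2 (0.160) or 3 (0.0503), with no filter (0.205) and after quantile normalization, which gave it a change of 0. The part of these shifts in the values of the 10 genes was not tested. The agrin siRNA replicates differed more among themselves than the control replicates did, most of all replicates 1 and 2 (controls differed by a chi-square of at most 5.89 per degree of freedom, and the closest agrin siRNA pair by 10.3). Fold changes are differences of log2(scaled CPM + 0.5), agrin siRNA minus control siRNA, and a gene was called when its Benjamini-Hochberg adjusted p over all 13206 tested genes was under 0.05 (limma, two-sided). By that rule 15.2% of all tested genes were called higher and 13.5% lower. These shares are the background for the marker counts above and for each list count below, and no list was tested against them.

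The 3 members that differed most were ANGPTL4 and PDK4, both higher in agrin siRNA libraries, and FABP3, which was lower. Their promoter sequences are shown for that reason, each running from 250 bases before the annotated start to 50 bases after it, on the gene's strand, from RefSeq on GRCh38.p14. Lower case marks the bases before the start and capitals the 50 bases from the start on. The ANGPTL4 window lies at chr19:8363905-8364204 on the plus strand, the PDK4 window at chr7:95596467-95596766 on the minus strand and the FABP3 window at chr1:31373027-31373326 on the minus strand.
ANGPTL4: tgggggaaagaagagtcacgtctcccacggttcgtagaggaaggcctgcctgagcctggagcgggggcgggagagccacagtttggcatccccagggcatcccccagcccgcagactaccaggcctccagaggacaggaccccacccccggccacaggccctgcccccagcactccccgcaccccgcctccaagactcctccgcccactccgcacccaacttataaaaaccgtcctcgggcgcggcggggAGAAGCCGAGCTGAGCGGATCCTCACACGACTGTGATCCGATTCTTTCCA
PDK4: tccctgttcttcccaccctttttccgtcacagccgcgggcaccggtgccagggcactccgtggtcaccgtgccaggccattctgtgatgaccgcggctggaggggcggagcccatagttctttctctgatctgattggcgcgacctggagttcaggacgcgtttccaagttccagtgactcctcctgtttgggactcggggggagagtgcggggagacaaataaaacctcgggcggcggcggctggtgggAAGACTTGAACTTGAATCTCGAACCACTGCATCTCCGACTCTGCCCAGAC
FABP3: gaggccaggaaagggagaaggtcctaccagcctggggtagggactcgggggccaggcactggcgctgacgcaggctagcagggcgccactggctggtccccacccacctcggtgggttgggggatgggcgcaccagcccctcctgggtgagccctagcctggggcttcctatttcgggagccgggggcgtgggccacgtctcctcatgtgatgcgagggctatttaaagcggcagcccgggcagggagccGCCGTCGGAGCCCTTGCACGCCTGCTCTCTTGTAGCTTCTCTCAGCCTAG

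By GENCODE release 29 on GRCh38, the ANGPTL4 gene spans chr19:8363289-8374373 on the plus strand, so its window lies inside the annotated gene. PDK4 spans chr7:95583499-95596491 and FABP3 chr1:31365625-31376850, both on the minus strand, and the FABP3 window is likewise inside the gene. The windows were searched on both strands for the DR1 element. The spelling AGGTCANAGGTCA occurred in 0.0228% of 35116 annotated promoter windows and in 0 of the 16 windows of the 10 members. The looser spellings AGGNCANAGGNCA, in 0.310% of all windows, and NGGNCANAGGNCA, in 0.917%, were absent from the members' windows too. The single half-site AGGTCA was present in 13.8% of all windows and, among the members, in 3 of the 6 windows of PPARG, a gene with several annotated starts. The PPARG windows chr3:12288810-12289109 and chr3:12288820-12289119 nearly coincide, and a single site is counted in both. It lies at -14 from the start in the first and at -24 in the second. The remaining matching window holds sites at -217 and -184 from its start. In the ANGPTL4 window the letters TATAAA began 29 bases before the start; they occur on the gene's strand in 7.33% of all windows, and the PDK4 and FABP3 windows hold none. The share of G and C in the 3 windows was 66.3% for ANGPTL4, 60.7% for PDK4 and 68.0% for FABP3, against a median of 58.7% over all windows. A missing match says only that these letters are not in these windows.

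For orientation, 7 of the 10 members lay past the threshold higher and 2 lower in agrin siRNA libraries, where 15.2% of all tested genes were called higher and 13.5% lower. HADHA lay short of it with the filter used, and past it with no filter on low values. The agrin siRNA and control siRNA libraries did not overlap for any of the 10, HADHA included, with 8 higher and 2 lower; among all tested genes 23.7% were higher and 21.5% lower without overlap, 45.2% in all. ANGPTL4 and PDK4 exceeded a 2-fold increase, which 0.318% of all tested genes did, and FABP3 a 2-fold decrease, which 0.341% did. Because the members were picked on this comparison, nothing is read from these counts. In bulk RNA, fewer cells expressing a gene and less RNA per cell cannot be told apart.

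The remaining members lie, by the same annotation, at chr3:12287368-12434356 (PPARG, plus strand), chr6:35342558-35428191 (PPARD, plus strand), chr9:19108375-19149290 (PLIN2, minus strand) and chr11:68754620-68844410 (CPT1A, minus strand). SLC25A20 lies at chr3:48856931-48898993 on the minus strand, ACADVL at chr17:7217125-7225273 on the plus strand and HADHA at chr2:26190635-26244726 on the minus strand. Reads were counted per gene, so no value here separates exons, introns or untranslated regions.

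**Figure D1:**
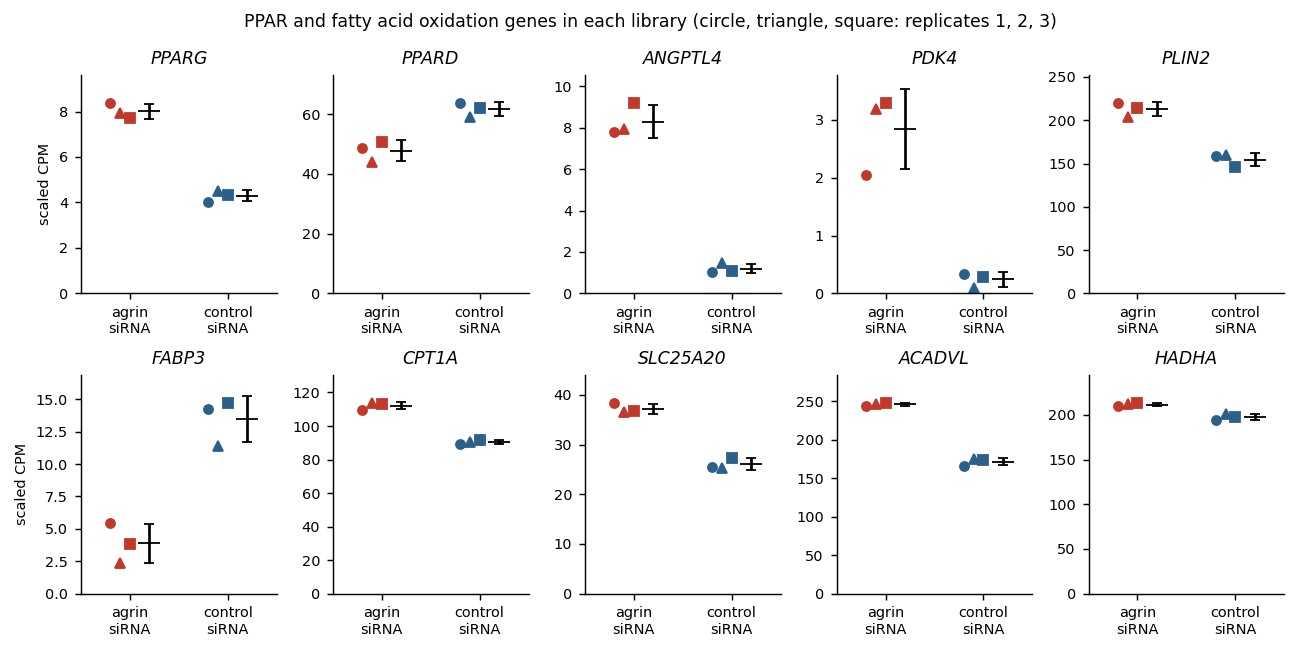
Scaled CPM (vertical axes, from 0) of the 10 genes in each library, agrin siRNA in red at the left and control siRNA in blue at the right; circles, triangles and squares are replicates 1, 2 and 3, and black bars are the mean ± SD (n = 3). The groups do not overlap in any panel, with the widest gaps for ANGPTL4, PDK4 and FABP3 and the narrowest for HADHA.

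Among the receptors, PPARG was higher and PPARD lower in agrin siRNA libraries. PPARG, the receptor best known for driving fat cell formation, stood at 8.37, 7.91 and 7.72 scaled CPM in agrin siRNA replicates 1, 2 and 3, against 4.04, 4.52 and 4.33 in control siRNA replicates 1, 2 and 3. Every agrin siRNA library lay above every control library, the ratio of the means was 1.86, and the log2 fold change was 0.83 with a standard error of 0.07. These are low levels, resting on 339 to 340 reads per agrin siRNA library and 160 to 178 per control library. PPARD, a receptor found in most tissues, stood at 48.8, 44.0 and 50.6 scaled CPM in agrin siRNA replicates 1, 2 and 3, against 63.7, 59.2 and 62.2 in control siRNA replicates 1, 2 and 3. It was lower in each agrin siRNA library than in any control, and lowest in replicate 2. The level left was 77.5% ± 5.56 of the control mean (SD, n = 3), with a log2 fold change of -0.37 and a standard error of 0.06.

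PPARA, the third receptor of the family, did not pass the threshold (log2 fold change -0.05, standard error 0.05, limma adjusted p = 0.559). Per kilobase of annotated exon, which allows levels of different genes to be set side by side, PPARD was the most abundant of the 3 in both groups. PPARG made up 10.9%, 10.9% and 9.63% of the summed PPAR level in agrin siRNA replicates 1, 2 and 3, against 4.48%, 5.38% and 4.88% in control siRNA replicates 1, 2 and 3. PPARD made up 61.7% to 64.4% of that sum in agrin siRNA libraries and 71.3% to 71.9% in control libraries. The summed level of the 3 receptors was 16.9 ± 0.851 scaled CPM per kilobase in agrin siRNA libraries and 19.3 ± 0.710 in control libraries (SD, n = 3 each). By this measure PPARG was the lowest of the 3 in both groups, while its share was larger in agrin siRNA libraries. Exon lengths here are unions over all annotated transcripts, so the order of the 3 is approximate.

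Of 11 tested partners and co-regulators of the receptors, 0 rose and 4 fell, where 15.2% of all tested genes were called higher and 13.5% lower. The median log2 fold change of the 11 was -0.14 (-0.00012 over all tested genes). LPIN1, a phosphatidate phosphatase that also acts as a co-activator, fell most (-0.50, limma adjusted p = 7.01e-05). The co-activator NCOA1 (-0.20, limma adjusted p = 0.0213) lost its call when agrin siRNA replicate 3 (adjusted p = 0.0642) or control siRNA replicate 1 (0.0690), 2 (0.0645) or 3 (0.0805) was left out. NCOR1, a co-repressor (-0.14, limma adjusted p = 0.0369), lost its call when any library but agrin siRNA replicate 2 was left out (adjusted p between 0.0620, agrin siRNA replicate 1 left out, and 0.136, control siRNA replicate 1 left out), and also with no filter (0.0508) and without the variance trend (0.0776). The number that fell ran from 2 to 7 when single libraries were left out. The remaining 7 genes, which include the retinoid X receptors RXRA and RXRB and the mitochondrial co-activator PPARGC1A, did not pass.

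Among the PPAR target genes, ANGPTL4 and PDK4 had the largest positive fold changes of all 13206 tested genes. ANGPTL4, a secreted inhibitor of lipoprotein lipase, stood at 7.78, 7.94 and 9.20 scaled CPM in agrin siRNA replicates 1, 2 and 3, against 1.04, 1.45 and 1.09 in control siRNA replicates 1, 2 and 3. The lowest agrin siRNA library was far above the highest control. The mean of the agrin siRNA libraries was 6.97 times that of the controls, with 315 to 405 reads per agrin siRNA library and 41 to 57 per control library, and the log2 fold change was 2.38 with a standard error of 0.11.

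PDK4, a kinase that switches off pyruvate dehydrogenase and so spares glucose when fatty acids are burned, was low in both groups. It stood at 2.05, 3.19 and 3.29 scaled CPM in agrin siRNA replicates 1, 2 and 3, against 0.328, 0.102 and 0.292 in control siRNA replicates 1, 2 and 3. The agrin siRNA values rest on 83 to 145 reads and the control values on 4 to 13, so the control level is imprecise. The means were 2.84 ± 0.690 in agrin siRNA libraries and 0.241 ± 0.122 in control libraries (SD, n = 3 each), a ratio of 11.8. The log2 fold change of 2.17 (standard error 0.18) leans on the pseudocount: it was 3.16 with a pseudocount of 0.1, 1.62 with a pseudocount of 1, 3.54 with edgeR and 3.56 with DESeq2. Its place among the largest increases moved with that choice from rank 1 (pseudocount 0.1, edgeR and DESeq2) to rank 5 (pseudocount 1), and ANGPTL4 ranked 1 or 2 in each of these.

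Set beside its family per kilobase, PDK4 remained a small part of the summed RNA level. It made up 5.77%, 8.70% and 8.86% of the summed level of PDK1 to PDK4 in agrin siRNA replicates 1, 2 and 3, against 1.02%, 0.303% and 0.946% in control siRNA replicates 1, 2 and 3. PDK2 made up 71.5% ± 3.65 in agrin siRNA libraries and 73.2% ± 0.943 in control libraries (SD, n = 3 each) and did not pass (log2 fold change 0.14, limma adjusted p = 0.0632), though it passed once agrin siRNA replicate 2 was left out (adjusted p = 0.0145). PDK1 (-0.20, limma adjusted p = 0.185, or 0.00288 once agrin siRNA replicate 2 was left out) and PDK3 (0.00, limma adjusted p = 0.987) did not pass either. Of the 13 other genes of pyruvate dehydrogenase, its kinases and phosphatases and pyruvate entry, 0 rose and 2 fell. These were the phosphatases PDP1 (-0.27, limma adjusted p = 0.0162) and PDP2 (-0.20, limma adjusted p = 0.0230), which act against the kinases. PDP1 lost its call without agrin siRNA replicate 3 (adjusted p = 0.0636), control siRNA replicate 1 (0.0750) or control siRNA replicate 2 (0.0623), and PDP2 without control siRNA replicate 2 (0.0682) or 3 (0.0928), so 0 to 3 genes of this list fell when single libraries were left out.

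PLIN2, a coat protein of lipid droplets, stood at 220, 204 and 214 scaled CPM in agrin siRNA replicates 1, 2 and 3, against 159, 159 and 146 in control siRNA replicates 1, 2 and 3. All agrin siRNA libraries were higher, with a log2 fold change of 0.46 and a standard error of 0.05. The related coat protein PLIN3 rose by less (0.17, limma adjusted p = 0.00513) and remained the more abundant of the pair per kilobase. PLIN2 made up 31.0% ± 0.732 of the summed PLIN2, PLIN3 and PLIN4 level in agrin siRNA libraries and 26.9% ± 0.985 in control libraries (SD, n = 3 each). Of 11 tested genes of droplet coats and lipolysis other than PLIN2, 3 rose and 1 fell, with a median log2 fold change of 0.10. The 3 were PLIN3, ABHD5, which activates the lipase ATGL (0.30, limma adjusted p = 0.00132), and G0S2, which inhibits that lipase (0.42, limma adjusted p = 0.0119). FITM2, a protein of droplet budding, fell (-0.24, limma adjusted p = 0.0303). The G0S2 call was lost without agrin siRNA replicate 3 (adjusted p = 0.0540) or control siRNA replicate 2 (0.0533) or 3 (0.0563). The FITM2 call was lost without agrin siRNA replicate 1 (0.0623) or control siRNA replicate 1 (0.133) or 2 (0.0925) and with no filter (0.0561). Leaving out single libraries gave 2 to 6 genes that rose and 0 to 1 that fell.

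FABP3, a small carrier of fatty acids in the cytosol best known from heart and muscle, differed in the other direction. It stood at 5.43, 2.40 and 3.81 scaled CPM in agrin siRNA replicates 1, 2 and 3, against 14.2, 11.4 and 14.7 in control siRNA replicates 1, 2 and 3. The agrin siRNA libraries were spread over more than a doubling among themselves, with replicate 1 highest and replicate 2 lowest, yet the highest of them was below the lowest control. The level left was 28.9% ± 11.3 of the control mean (SD, n = 3), with 103 to 220 reads per agrin siRNA library and 450 to 604 per control library. The log2 fold change was -1.72 with a standard error of 0.22, rank 6 among the decreases of all tested genes; leaving out agrin siRNA replicate 1 gave -1.97, and leaving out replicate 2 of that group gave -1.46. Replicate 2 was the lowest agrin siRNA library for PPARD, PLIN2 and SLC25A20 too. Replicate 1 was the lowest for ANGPTL4, PDK4, CPT1A, ACADVL and HADHA, and replicate 3 for PPARG.

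Other genes of fatty acid uptake, binding and lipoprotein lipase control gave 1 increase and 1 decrease among 8 tested, with a median log2 fold change of -0.05. CAV1, the caveolar coat protein, rose to 2101 ± 174 scaled CPM in agrin siRNA libraries, against 1367 ± 23.8 in control libraries (SD, n = 3 each; log2 fold change 0.62, limma adjusted p = 0.000175). VLDLR, a receptor for triglyceride-rich lipoproteins and itself a PPAR target, fell (-0.55, limma adjusted p = 0.00175). CD36, the fatty acid translocase and a classical PPARG target in macrophages and fat cells, was among those that did not pass (0.08, standard error 0.10, limma adjusted p = 0.574).

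**Figure D2:**
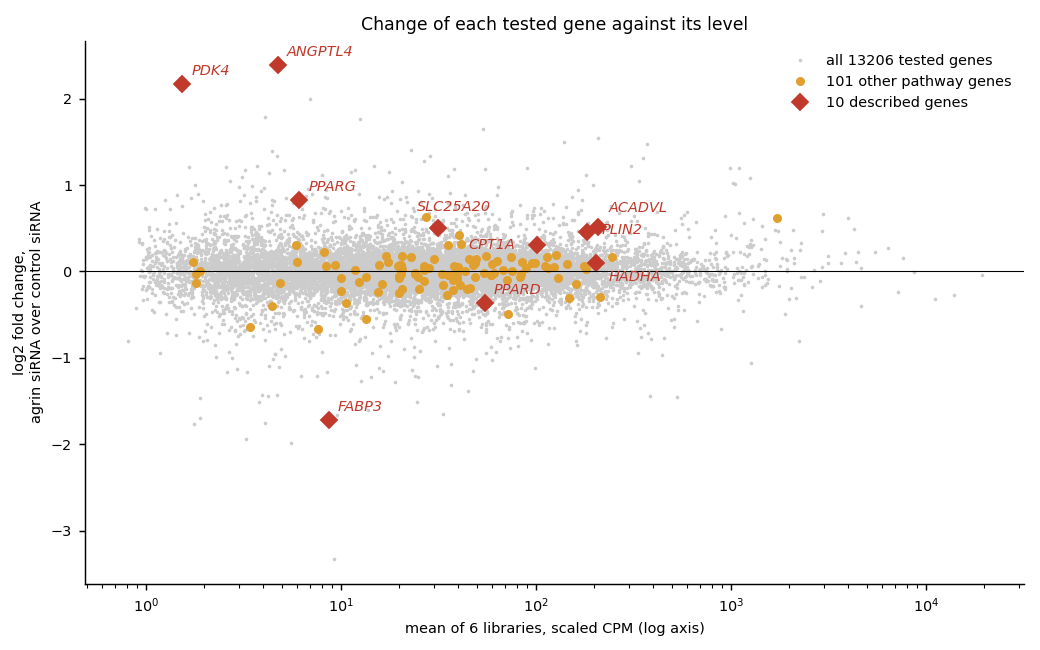
Log2 fold change of scaled CPM + 0.5, agrin siRNA over control siRNA (vertical axis), against the mean level of the 6 libraries in scaled CPM (horizontal log axis) for 13206 tested genes in grey, 101 other pathway genes in orange and the 10 described genes as red diamonds. ANGPTL4 (2.38) and PDK4 (2.17) stand at the top edge of the cloud at low levels and FABP3 (-1.72) near the bottom, while the orange points run from -0.67 to 0.63.

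Both members of the carnitine shuttle were higher in agrin siRNA libraries. CPT1A, the outer-membrane enzyme whose inhibition by malonyl-CoA sets the rate of fatty acid entry, stood at 110, 113 and 113 scaled CPM in agrin siRNA replicates 1, 2 and 3, against 89.4, 90.6 and 91.6 in control siRNA replicates 1, 2 and 3. The replicates were tight in both groups, and the log2 fold change was 0.31 with a standard error of 0.04. SLC25A20, the carnitine-acylcarnitine carrier, stood at 38.3, 36.5 and 36.7 scaled CPM in agrin siRNA replicates 1, 2 and 3, against 25.4, 25.3 and 27.4 in control siRNA replicates 1, 2 and 3. Its log2 fold change was 0.51 with a standard error of 0.05, and again the groups did not overlap.

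The sister isoform CPT1C, known mainly from neurons, rose (0.18, limma adjusted p = 0.0297), and CPT1B, the muscle isoform, did not pass (0.31, standard error 0.12, limma adjusted p = 0.0915; 0.00664 without agrin siRNA replicate 2). CPT1A made up 59.3% ± 2.10 of the summed CPT1 level per kilobase in agrin siRNA libraries and 57.5% ± 0.989 in control libraries (SD, n = 3 each), so the mix of isoforms differed little. The CPT1C call was lost when any library but agrin siRNA replicate 2 was left out (adjusted p between 0.0594, agrin siRNA replicate 1 left out, and 0.121, control siRNA replicate 2 left out). It was also lost with no filter (0.0505), without the variance trend (0.0571) and after rescaling without mitochondrial and top genes (0.0592).

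In the matrix, ACADVL, the dehydrogenase that opens the oxidation of very long and long chains, was higher and HADHA hardly differed. ACADVL stood at 244, 247 and 247 scaled CPM in agrin siRNA replicates 1, 2 and 3, against 167, 176 and 173 in control siRNA replicates 1, 2 and 3. The log2 fold change was 0.52 with a standard error of 0.04, and the agrin siRNA replicates lay within a few units of each other. HADHA stood at 209, 212 and 213 scaled CPM in agrin siRNA replicates 1, 2 and 3, against 194, 201 and 197 in control siRNA replicates 1, 2 and 3. The groups did not overlap, but the difference was small, with a mean of 211 ± 1.75 in agrin siRNA libraries and 197 ± 3.47 in control libraries (SD, n = 3 each) and a log2 fold change of 0.10 (standard error 0.03).

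HADHB, the beta subunit of the trifunctional protein, is a neighbour of HADHA. The RefSeq starts of the genes lie 307 bases apart on chromosome 2, at positions 26244632 for HADHA on the minus strand and 26244939 for HADHB on the plus strand. HADHB stood at 147, 149 and 150 scaled CPM in agrin siRNA replicates 1, 2 and 3, against 138, 141 and 140 in control siRNA replicates 1, 2 and 3, and did not pass (log2 fold change 0.09, standard error 0.03, limma adjusted p = 0.0748; 0.0319 with no filter). HADHA made up 58.1% ± 0.00821 of the summed level of the pair per kilobase in agrin siRNA libraries and 58.0% ± 0.159 in control libraries (SD, n = 3 each), a nearly fixed ratio. The annotated gene bodies overlap on opposite strands, and whether counting used strand is not given in the sources used here, so some reads of the pair are uncertain. ANGPTL4 overlaps the antisense gene RAB11B-AS1 and ACADVL overlaps DLG4. RAB11B-AS1 averaged 3.54 scaled CPM in agrin siRNA libraries and 3.24 in control libraries, and DLG4 averaged 36.3 in agrin siRNA libraries and 32.5 in control libraries.

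ACADVL was the most abundant of the 7 acyl-CoA dehydrogenases analysed here. It made up 60.7% ± 0.491 of their summed level per kilobase in agrin siRNA libraries and 50.9% ± 0.790 in control libraries (SD, n = 3 each), and every agrin siRNA library was above every control. ACADM, the medium-chain enzyme (-0.09, limma adjusted p = 0.208), and ACADS, the short-chain enzyme (-0.12, limma adjusted p = 0.242; 0.0452 without agrin siRNA replicate 1), did not pass, nor did ACAD9 (0.05, limma adjusted p = 0.462), ACAD10 (-0.05, limma adjusted p = 0.585) or ACAD11 (-0.03, limma adjusted p = 0.724). ACADSB, which acts on short branched chains, fell (-0.25, limma adjusted p = 0.0410). That call was lost without agrin siRNA replicate 1 (adjusted p = 0.0817) or 3 (0.146), without control siRNA replicate 1 (0.111) or 2 (0.153), with no filter (0.0815) and without the variance trend (0.0610). Per kilobase, ACADVL stood at 50.6 ± 0.391 scaled CPM in agrin siRNA libraries and 35.3 ± 0.965 in control libraries, and HADHA at 48.2 ± 0.398 in agrin siRNA libraries and 45.0 ± 0.791 in control libraries (SD, n = 3 each). Exon lengths here are unions over all annotated transcripts, so which gene of the pair is the more abundant is not settled in either group. ECHS1, the short-chain enoyl-CoA hydratase, stood close to them at 46.7 ± 0.732 in agrin siRNA libraries and 46.4 ± 0.490 in control libraries (SD, n = 3 each).

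**Figure D3:**
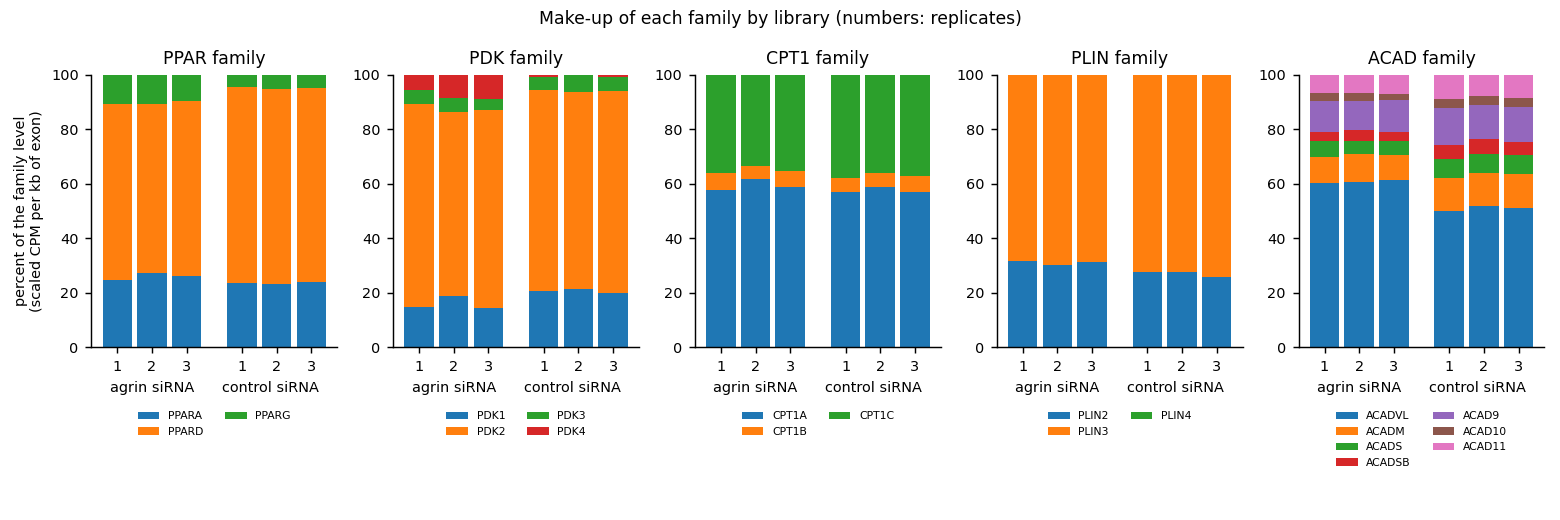
Share of each gene in the summed level of its family, in percent of scaled CPM per kilobase of exon (vertical axis), for the PPAR, PDK, CPT1, PLIN and ACAD families, 1 bar per library with agrin siRNA at the left and control siRNA at the right of each panel. PPARG, PDK4, PLIN2 and ACADVL take a larger share in agrin siRNA bars (ACADVL 60.7% ± 0.491 in agrin siRNA libraries, against 50.9% ± 0.790 in control libraries), and the CPT1 mix is close to level.

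The members were set beside the wider pathway. The 9 lists of the pathway were written with earlier results of these data known, and the members were left out. Of 101 tested genes from these lists, 10 rose and 16 fell, which is 9.90% and 15.8%, against 15.2% and 13.5% of all tested genes. Because the members left out had been picked on this comparison, these counts do not stand for the whole pathway. The median log2 fold change was 0.01. A 2-fold change in either direction was reached by 0 of the 101, where 0.318% of all tested genes were higher and 0.341% lower by at least 2-fold. At such shares a count of 0 says little. The quartiles of their log2 fold changes were -0.10 and 0.10, and those of all tested genes -0.11 and 0.11. When single libraries were left out, the genes that rose numbered 9, 20 and 6 without agrin siRNA replicates 1, 2 and 3, and 7, 6 and 5 without control siRNA replicates 1, 2 and 3. Those that fell numbered 15, 21 and 9 without agrin siRNA replicates 1, 2 and 3, and 8, 7 and 11 without control siRNA replicates 1, 2 and 3.

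Among 15 other PPAR target genes tested, 2 rose and 4 fell, with a median log2 fold change of -0.07. G0S2 and CPT2, the inner-membrane carnitine transferase (0.17, limma adjusted p = 0.0392), were the increases. The CPT2 call was lost when any library but agrin siRNA replicate 2 was left out (adjusted p between 0.0583, agrin siRNA replicate 1 left out, and 0.153, agrin siRNA replicate 3 left out), with DESeq2 (0.0763) and after rescaling without mitochondrial and top genes (0.0766). The decreases were VLDLR, the acyl-CoA thioesterase ACOT1 (-0.64, limma adjusted p = 0.00533), the mitochondrial carrier UCP2 (-0.37, limma adjusted p = 0.00602) and PEX11A. ACOT1 and ACOT2 are near-identical neighbours, so the split of their reads is uncertain. ACOT2 did not pass (0.07, limma adjusted p = 0.389). The remaining 9 did not pass, among them the droplet protein HILPDA. Leaving out single libraries gave 0 to 3 increases and 3 to 5 decreases.

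Of 25 tested genes on a list of mitochondrial fatty acid oxidation, with the members left out, 4 rose and 2 fell, with a median log2 fold change of 0.06. Where the product of each listed gene acts in these cells was not tested. ETFB, a subunit of the flavoprotein that takes electrons from the acyl-CoA dehydrogenases, rose most (0.31, limma adjusted p = 0.00247). The other increases were CPT1C, CPT2 and the enoyl-CoA isomerase ECI2 (0.17, limma adjusted p = 0.0111), which lost its call without control siRNA replicate 3 (0.0530). ACSL3, which activates long-chain fatty acids, fell (-0.30, limma adjusted p = 0.000412) with ACADSB. The remaining 19 genes did not pass. Without single libraries, 1 to 6 of these genes rose and 1 to 4 fell.

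Peroxisomal oxidation gave 1 increase and 1 decrease among 15 tested genes, with a median log2 fold change of 0.02. CROT, the peroxisomal carnitine octanoyltransferase, stood at 30.8, 35.7 and 33.7 scaled CPM in agrin siRNA replicates 1, 2 and 3, against 21.9, 21.1 and 21.2 in control siRNA replicates 1, 2 and 3 (log2 fold change 0.63, limma adjusted p = 0.000112). It rose in every agrin siRNA library and had the largest increase of the 101 genes. PEX11A, a protein of peroxisome division, fell (-0.22, limma adjusted p = 0.0445). That call was lost when any library but agrin siRNA replicate 1 was left out (adjusted p between 0.0811, agrin siRNA replicate 2 left out, and 0.143, control siRNA replicate 1 left out). It was lost too with no filter (0.0642), after quantile normalization (0.0518) and with DESeq2 (0.0735).

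Of 10 tested genes on a list of malonyl-CoA control and the AMP-activated kinase, which did not hold ACACA, 1 rose and 1 fell. PRKAA2, the alpha-2 catalytic subunit of the kinase, fell most of the 101 genes (-0.67, limma adjusted p = 0.000381). ACACB, the mitochondrial acetyl-CoA carboxylase whose malonyl-CoA inhibits CPT1A, rose to 8.91 ± 0.393 scaled CPM in agrin siRNA libraries, against 7.56 ± 0.148 in control libraries (SD, n = 3 each; 0.22, limma adjusted p = 0.0317). ACACA, the cytosolic carboxylase that makes malonyl-CoA for fatty acid synthesis, stood higher in both groups and fell to 65.9 ± 1.04 scaled CPM in agrin siRNA libraries, against 99.8 ± 2.32 in control libraries (SD, n = 3 each; -0.60, limma adjusted p = 1.28e-05). It kept its call under all 17 alternatives, from -0.62 to -0.58. The ACACB call was lost when any library but agrin siRNA replicate 2 was left out (adjusted p between 0.0679, control siRNA replicate 3 left out, and 0.113, control siRNA replicate 1 left out). It was lost as well with DESeq2 (0.0940) and after rescaling without mitochondrial and top genes (0.0534). Of 5 tested genes of ketone body metabolism, 0 rose and 2 fell, BDH1 (-0.40, limma adjusted p = 0.0125) and OXCT1 (-0.21, limma adjusted p = 0.0363), which act in making and using ketone bodies. BDH1 lost its call without agrin siRNA replicate 3 (0.0540) or control siRNA replicate 1 (0.0592) or 2 (0.0566). OXCT1 lost it when any library but agrin siRNA replicate 2 was left out (adjusted p between 0.0770, agrin siRNA replicate 1 left out, and 0.133, agrin siRNA replicate 3 left out), with no filter (0.0704) and without the variance trend (0.0632).

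**Figure D4:**
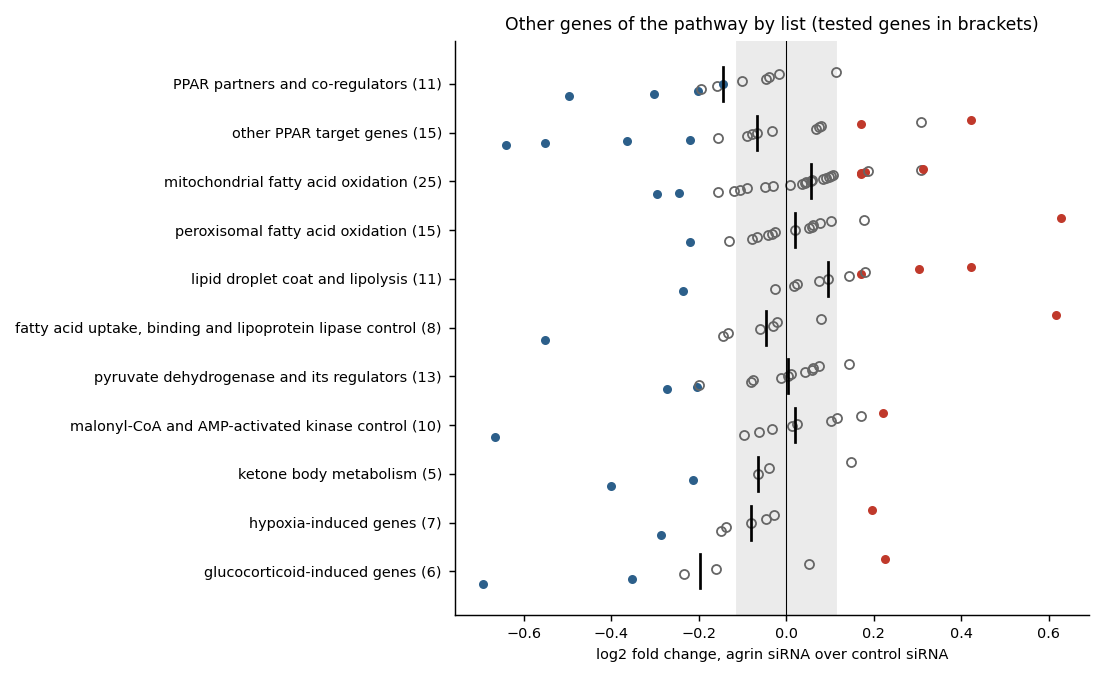
Log2 fold change, agrin siRNA over control siRNA (horizontal axis), of each tested gene in 11 lists (rows, with the members left out); red points were called higher, blue points lower and open points not called (limma), black bars are list medians and the grey band runs between the quartiles of all tested genes, -0.11 to 0.11. Points spread to both sides in most rows, and CROT (0.63) is the rightmost point.

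ANGPTL4, PLIN2 and PDK4 are known to respond to inputs other than the PPARs, among them low oxygen and glucocorticoids. Lists of genes induced by these inputs were therefore read beside them. The part of either input in the values of ANGPTL4, PLIN2 and PDK4 was not tested. Of 7 tested hypoxia-induced genes, 1 rose and 1 fell, with a median log2 fold change of -0.08. VEGFA, the vascular growth factor, fell (-0.29, limma adjusted p = 0.0409), though its groups overlapped, and the glycolytic regulator PFKFB4 rose (0.20, limma adjusted p = 0.0493). VEGFA lost its call without agrin siRNA replicate 3 (0.119), control siRNA replicate 1 (0.129) or control siRNA replicate 2 (0.142), with no filter (0.0949) and without the variance trend (0.0761). PFKFB4 lost its call under 11 of 17 alternatives, with adjusted p up to 0.192 without control siRNA replicate 1. Of 6 tested glucocorticoid-induced genes, 1 rose and 2 fell, with a median of -0.20. KLF9 (-0.69, limma adjusted p = 8.04e-05) and TSC22D3 (-0.35, limma adjusted p = 0.00751) fell, while DUSP1 rose (0.23, limma adjusted p = 0.0112) and lost its call without agrin siRNA replicate 3 (0.0549) or control siRNA replicate 3 (0.0514).

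Markers of other cell types were low or near level, apart from those of macrophages. Of 10 adipocyte markers, 2 were among the genes analysed here, LIPE and CEBPA, and their summed level was 2.30 to 2.72 scaled CPM in agrin siRNA libraries and 2.50 to 2.89 in control libraries, beside the higher PPARG. Of 8 macrophage markers, 3 were among the genes analysed here and 3 of 3 rose. Their sum was 263 to 271 scaled CPM in agrin siRNA libraries and 126 to 143 in control libraries, nearly all of it CD68, a lysosomal protein that the control fibroblasts also carried at 131 ± 9.09 (SD, n = 3). CD14 was at 2.53 scaled CPM in agrin siRNA libraries and 1.51 in control libraries, and CD74 at 1.78 in agrin siRNA libraries and 0.875 in control libraries. Their part in the values of the 10 genes was not tested. Of 8 muscle markers, 1 was among the genes analysed here, MB, which reached at most 0.0494 scaled CPM in agrin siRNA libraries and 0.0253 in control libraries, beside the lower FABP3. Of 6 keratinocyte markers, KRT10 was tested and rose narrowly (0.14, limma adjusted p = 0.0499), a call lost when any 1 of the 6 libraries was left out (adjusted p between 0.0530, agrin siRNA replicate 2 left out, and 0.158, control siRNA replicate 1 left out). The other 5 stayed under 1 scaled CPM in every library, and KRT1 was at 0 reads. The 1 endothelial marker analysed here, CDH5, was at 0 reads in all 6 libraries, where 3 reads correspond to 0.0681 to 0.0761 scaled CPM.

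**Figure D5:**
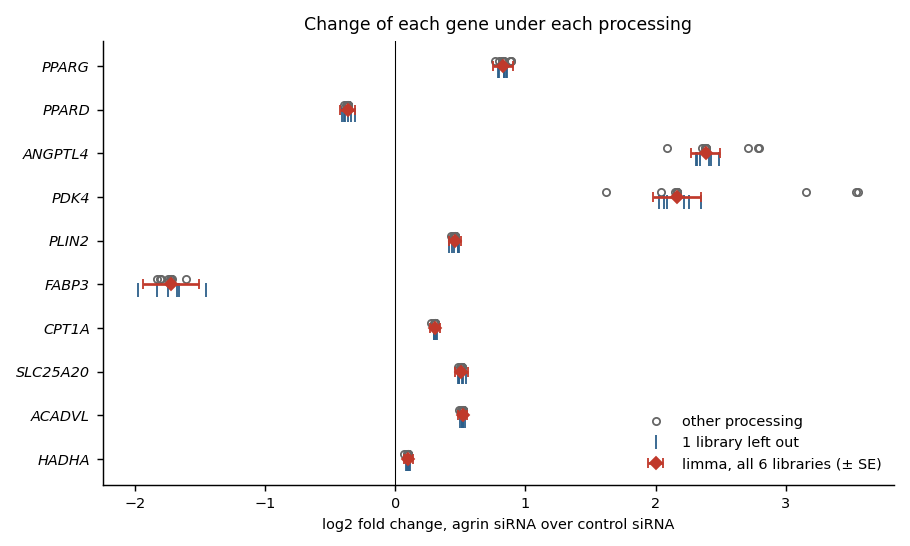
Log2 fold change, agrin siRNA over control siRNA (horizontal axis), of each of the 10 genes (rows) with all 6 libraries (red diamond ± standard error), under other processing (open circles) and with 1 library left out (blue ticks). PDK4 spreads most, from 1.62 to 3.56, and HADHA stays between 0.07 and 0.11.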

How the data were processed

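Total RNA was isolated with a Zymo kit and made into TruSeq Stranded mRNA libraries, per the labels' protocols. The submitters' processing notes name STAR 2.6.1d, HTSeq, SAMtools and edgeR, and build hg38; no source used here states the annotation release, strand setting, gene filter or scaling factors. The authors deposited 1 normalized expression signal per gene and library, which they call CPM. The columns sum to 1073188 to 1096534, so they are not plain CPM, and are called scaled CPM. Of the values, 100% were whole multiples of 1 step per column (tolerance 0.01 of a read), which gave back whole reads.

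Genes with at least 1 scaled CPM in at least 3 libraries were tested (13206) with limma 3.58.1 (R 4.3.3) on log2(value + 0.5), using a variance trend and no covariate; this unit took the same test that had been planned for CPM. On the recovered reads, edgeR 4.0.16 called 1844 genes higher and 1887 lower, and limma, on the scaled CPM, 2005 and 1783. The members and lists were chosen with earlier results of these data known. Named genes were AGRN, the 10 members with their families, and in each list the called genes, up to 4, taken by size of change (lists with fewer than 2 called genes, of which there were none, would have given their most abundant genes); ACACA, CPT2, ECI2, CD36, ACOT2, ECHS1, RXRA, RXRB, PPARGC1A and HILPDA (given without values) and the marker genes were chosen after their values were seen. A called gene of the list of partners and co-regulators is not reported here. Exon length is the union of all exons in GENCODE release 29, which overstates the length of the transcripts used, so levels per kilobase are approximate. All replicate pairs differed by more than counting error (chi-square over its degrees of freedom 10.3 to 25.0 among agrin siRNA libraries, 4.45 to 5.89 among control libraries). The test was checked on simulated reads. It recovered 42% of 1.2-fold, 86% of 1.5-fold and 100% of 2-fold changes, with 50 of 13206 genes changed at each size. There were 8 false calls among 172. The data themselves gave 3788 calls (limma), and recovery at that number of calls was not tested. A small change can go uncalled. Alternatives were other pseudocounts, filters, scalings and tools, the replicate block and each library left out. Counting limits the low genes. Figures used matplotlib 3.10.9.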

Additional observations from a re-analysis of the deposited data

How the results depend on the processing

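The members' fold changes under each alternative are a description. With a mean of at least 5, ANGPTL4 and PDK4 were below the filter. Over 64 named genes and 1081 repeats, 109 lost a call, 6 gained it and 9 changed sign, all 9 for genes that were not called: PDK3 (-0.0191 rescaled without mitochondrial and top genes, -0.0154 with edgeR, -0.0102 with DESeq2, -0.0744 to 0.115 when single libraries were left out), ACAD11 (-0.0868 to 0.00491) and CD36 (-0.00464 to 0.175), both when single libraries were left out. When single libraries were left out, all genes gave 1124 (without control siRNA replicate 1) to 2551 (without agrin siRNA replicate 2) higher and 947 to 2588 lower, at the same libraries, and the other pathway genes gave 5 to 20 higher and 7 to 21 lower. After rescaling that set aside the mitochondrial and the 10 top genes, 1574 genes were called higher and 2260 lower, an increase share of 41.1% of calls, against 52.9% as deposited (limma); the other pathway genes then gave 7 higher and 17 lower. Samples with the same replicate number did not deviate together throughout (correlations of -0.04, 0.17 and 0.20 for numbers 1, 2 and 3). Samples with unlike numbers ran from -0.33 (agrin siRNA replicate 3, control siRNA replicate 2) to 0.15 (agrin siRNA replicate 3, control siRNA replicate 1). With so few libraries per group, these values cannot settle whether the numbers pair the libraries. With the replicate block there were 1905 higher and 1775 lower genes, with 11 higher and 17 lower among the other pathway genes, and PFKFB4 (adjusted p = 0.0725) and KRT10 (0.0874) lost their calls. Depth limits PDK4, whose control libraries held 4 to 13 reads.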
